A study of Homo sapiens with 14 samples.

Results

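The genes described here are 10 members of the bone morphogenetic protein (BMP) and transforming growth factor beta (TGF-beta) signalling pathways, chosen by name: the receptor genes ACVRL1, BMPR2 and TGFBR2, the signal transducers SMAD1 and SMAD5, the inhibitory SMAD6 and SMAD7, and the target genes ID1, ID2 and ID3. The choice was made with earlier results of these data known. All 10 genes were listed in both of the authors' deposited tables, which have 10894 genes in common. The samples were 14 RNA libraries of teloHAEC, a human aortic endothelial cell line immortalised with telomerase. In the siRNA comparison, 4 libraries of cells transfected with siRNA against CALCRL (si-CALCRL) were set against 4 of cells given scrambled siRNA (si-scrambled), with lysis 24 hours after transfection. In the deletion comparison, 3 libraries of cells electroporated with Cas9 and guides flanking an enhancer of CALCRL (CALCRL_enhancer_deletion) were set against 3 that received Cas9 with a guide against HPRT (CRISPR control), collected 2 days later. The deletion controls therefore also carried Cas9 with a targeting guide, and the labels describe electroporated cells and name no selected clone. CALCRL encodes the calcitonin receptor-like receptor, the receptor subunit for adrenomedullin and CGRP. By its title the series is about this enhancer and its control of CALCRL, and the comparisons address what changes in the transcriptome with each treatment.

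BMP and TGF-beta ligands bind pairs of type II and type I receptor kinases, and the type I kinase phosphorylates receptor-regulated SMAD proteins, which enter the nucleus with SMAD4. In endothelial cells the type I receptor ACVRL1 (ALK1), with BMPR2 and the co-receptor endoglin, responds to circulating BMP9 and BMP10 through SMAD1 and SMAD5, and TGFBR2 is the type II receptor for TGF-beta. ID1, ID2, ID3, SMAD6 and SMAD7 are direct target genes: the ID proteins hold E proteins off DNA, and SMAD6 and SMAD7 feed back on the receptors. Inherited loss of ACVRL1 or endoglin causes hereditary haemorrhagic telangiectasia, and inherited loss of BMPR2 causes pulmonary arterial hypertension.

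For every gene the tables give the mean normalised count of the compared libraries, a log2 fold change of treated over control, its standard error (SE) and an adjusted p-value from the authors' DESeq2 Wald test. They hold no value for a single library, so no spread between libraries can be shown and the deposited SE stands for it. Group means given below are implied by the mean count and the fold change. Genes were counted as called where the adjusted p-value was under 0.05. The comparisons share no libraries. CALCRL itself was at 34.0% of control under siRNA (95% interval 27.1% to 42.7%) and at 36.2% after the deletion (20.2% to 64.7%). HPRT1, targeted in the controls, stood at 94.1% of the CRISPR control (47.4% to 187%), and reads from the 3′ end need not report a cut within a gene. Of 12 endothelial marker genes, 11 were listed in both tables; PECAM1 was not listed. Of 6 fibroblast, 1 blood and 2 epithelial markers, 0 were listed. Of 5 smooth muscle markers, 2 were listed and 0 called. Of the 11 endothelial markers, 6 were lower and 5 higher after the deletion, with log2 fold changes from -1.44 to 0.59 and a median of -0.01, and 2 were called (18.2%, near the 15.8% of all genes). These were CDH5 (log2 fold change -1.44, SE 0.35, adjusted p-value 0.00142) and KDR (-1.05, SE 0.31, adjusted p-value 0.00966), which fell by the authors' deposited table. Under siRNA 7 were lower and 4 higher, with a median of -0.08, and EGFL7 (-0.46) was the 1 called. The part of these changes in the results below was not tested.

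After the deletion 3 of the 10 genes were called, beside 15.8% of all genes, and whether this exceeds that share was not tested. TGFBR2 and SMAD6 fell and ACVRL1 rose, while under siRNA 0 of the 10 were called. In the siRNA comparison 3.46% of all 11261 genes were called (DESeq2; 1.05% higher, 2.42% lower), so 0 of 10 is near that background, and 3 of the 10 (ID2, TGFBR2 and SMAD6) had an unadjusted p-value under 0.05, against 12.0% of all genes. In the deletion comparison 15.8% of 11830 genes were called, with 7.40% higher and 8.44% lower, beside 1 higher and 2 lower among the 10. There 4 of the 10, the called genes and ID3, had an unadjusted p-value under 0.05, against 29.7% of all genes. Most point estimates lay below 0. In the siRNA comparison 8 of the 10 lay below 0, beside 49.4% of all genes and 65.6% of the other pathway genes listed below. Their median log2 fold change was -0.21, beside 0.00 over all genes. After the deletion 7 of the 10 were lower, beside 49.7% of all genes and 64.1% of the other pathway genes. Their median was -0.44, also beside 0.00 over all genes. Whether the members differ from these shares was not tested. The calls of the deletion comparison rest on the normal reference of the Wald test. With a Student t reference on 4 degrees of freedom, ACVRL1, TGFBR2 and SMAD6 had adjusted p-values of 0.357, and with the statistics divided by their robust SD of 1.88 they had 0.975, so 0 of the 10 members were called under either. Over all 11830 genes of the deletion comparison 0 were called under either as well. In bulk RNA, a smaller share of cells that make a transcript and less transcript in each cell cannot be told apart.

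**Figure D1:**
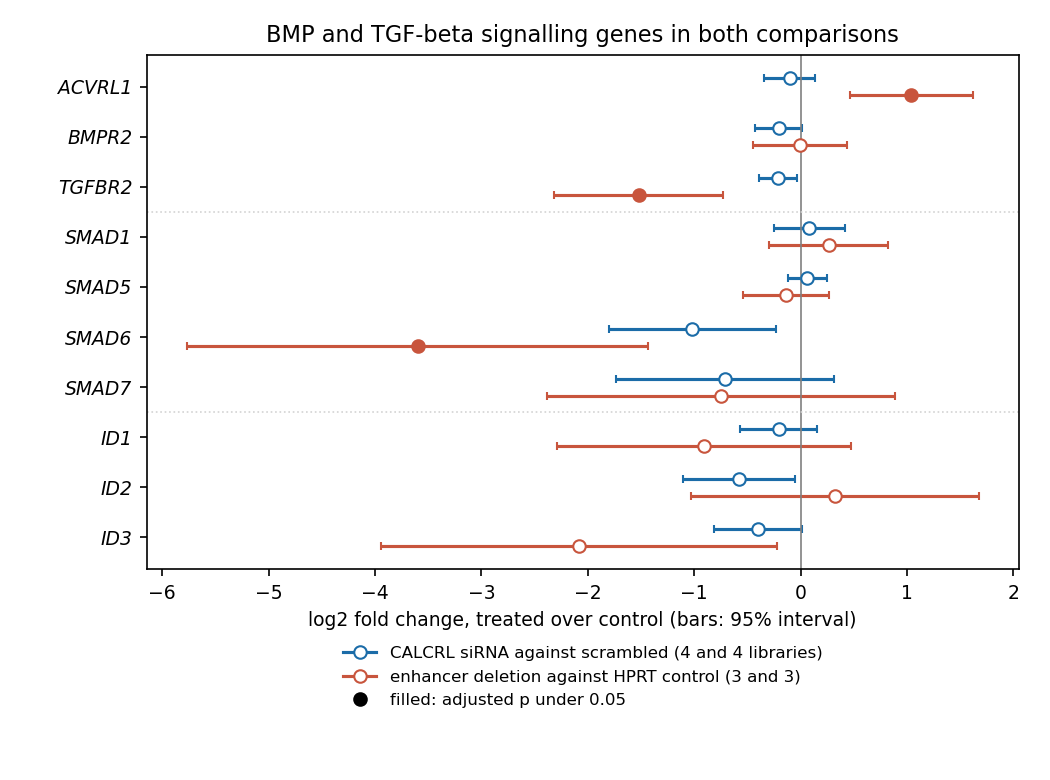
The log2 fold change of each of the 10 genes is plotted with its 95% interval for CALCRL siRNA (blue) and enhancer deletion (red), with filled points at an adjusted p-value under 0.05; receptors, SMADs and ID genes are separated by dotted lines. The 3 filled points, ACVRL1 at 1.04, TGFBR2 at -1.52 and SMAD6 at -3.60, all belong to the deletion, and the blue points lie between -1.02 and 0.08.

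The 3 receptor genes went different ways after the deletion. ACVRL1 lies on chromosome 12 from 51906908 to 51923361 (GENCODE 29, GRCh38, plus strand), and its implied mean was 1176 normalised counts in the CRISPR control and 2421 after the deletion. In the authors' deposited table it rose by 1.04 on the log2 scale (SE 0.30, adjusted p-value 0.00744). This was 206% of control, with an interval from 138% to 307%. With a trend of fold change on the GC content of the transcript end removed, ACVRL1 was at 0.76 and missed the threshold (adjusted p-value 0.0649). Its own transcript end was 52.8% GC, beside a median of 42.0% over the genes of the table.

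TGFBR2, on chromosome 3 from 30606502 to 30694142 (plus strand), had an implied mean of 855 normalised counts in the CRISPR control and 297 after the deletion. It fell by 1.52 on the log2 scale (SE 0.40, adjusted p-value 0.00409) by the authors' deposited table. That placed it at 34.8% of control, with an interval from 20.1% to 60.2%, and with the GC trend removed it was at -1.30 (adjusted p-value 0.0180). BMPR2, on chromosome 2 from 202376936 to 202567751 (plus strand), stood at 99.5% of control in the deletion comparison. Its interval ran from 73.2% to 135%, which does not reach the values of TGFBR2 or ACVRL1. The log2 fold change of BMPR2 in the authors' deposited table was -0.01 (SE 0.23, adjusted p-value 0.985).

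Under siRNA the same 3 receptors were close together: ACVRL1 was at 93.1% of the scrambled control (78.8% to 110%), BMPR2 at 86.6% (74.1% to 101%) and TGFBR2 at 86.2% (76.3% to 97.5%). None was called, with adjusted p-values of 0.883, 0.485 and 0.239 in the authors' deposited table. The implied means for TGFBR2 were 703 normalised counts with scrambled siRNA and 606 with siRNA against CALCRL. For ACVRL1 they were 1916 and 1784, and for BMPR2 650 and 563.

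The difference between the comparisons was tested directly for each gene, as the deletion log2 fold change minus that of the siRNA, with Benjamini-Hochberg adjustment over 10891 genes, of which 13.7% passed. Among the 10 members 2 passed, both receptor genes. The difference was 1.14 (SE 0.32, adjusted p-value 0.00799) for ACVRL1 and -1.31 (SE 0.41, adjusted p-value 0.0201) for TGFBR2. For BMPR2 it was 0.20, with an interval from -0.30 to 0.70. Removal of the GC trend left ACVRL1 at 0.89 (adjusted p-value 0.0497) and TGFBR2 at -1.10 (adjusted p-value 0.0613), the latter no longer past the threshold. The comparisons differ in delivery, time and control, and these cannot be told apart as sources of a difference.

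SMAD1 and SMAD5, the transducers that BMP receptors phosphorylate, were not called in either comparison. SMAD1 (chromosome 4, 145481194 to 145558079, plus strand) was at 106% of control under siRNA, with an interval from 84.3% to 133%. After the deletion it was at 120% (81.6% to 177%). SMAD5 (chromosome 5, 136132845 to 136188747, plus strand) was at 104% under siRNA (91.8% to 119%) and at 90.9% after the deletion (68.5% to 120%). On the log2 scale SMAD5 had the smallest deletion SE of the 10 genes (0.21), and the level of TGFBR2 lies outside its interval. The adjusted p-values in the authors' deposited tables were 0.957 and 0.571 for SMAD1 and 0.929 and 0.700 for SMAD5. The sign of SMAD5 in the deletion changed when the GC trend was removed (0.15), as did that of BMPR2 (0.23). Exons of SMAD1 and SMAD5 overlap the antisense genes SMAD1-AS1 and SMAD5-AS1 by 376 and 610 bases, and those of ID2 overlap ID2-AS1 by 38. None of these antisense genes was listed, and whether counting used the strand is not given in the sources used here, so reads from either partner cannot be told apart.

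The inhibitory SMAD6 and SMAD7 were, with ID2, the members with the lowest counts. SMAD6, on chromosome 15 from 66702228 to 66782848 (plus strand), binds receptor-activated SMAD1 and the type I receptors and is strongly expressed in endothelium. Its mean was 14.5 normalised counts in the deletion comparison, 26.9 in the CRISPR control and 2.22 after the deletion as implied. In the authors' deposited table it fell, with a log2 fold change of -3.60 (SE 1.11, adjusted p-value 0.0146). Since the treated mean is under 3 normalised counts, the upper end of the interval is the usable value: at most 37.1% of control. With the GC trend removed SMAD6 stayed past the threshold (-3.45, adjusted p-value 0.0228). Under siRNA SMAD6 had the lowest value of the 10 genes, with implied means of 22.2 and 11.0 normalised counts. That is 49.4% of control with an interval from 28.7% to 85.2%, and it was not called in the authors' deposited table (log2 fold change -1.02, SE 0.40, p = 0.0112, adjusted p-value 0.181, DESeq2). The deletion value was lower than the siRNA value by an amount that did not pass the test (-2.58, SE 1.18, adjusted p-value 0.121).

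SMAD7, on chromosome 18 from 48919853 to 48952052 (minus strand), inhibits both BMP and TGF-beta receptors. It was at 61.1% of control under siRNA (30.0% to 124%) and at 59.5% after the deletion (19.2% to 185%). Its mean counts were 11.4 and 24.9, with SEs of 0.52 and 0.83. After the deletion an unchanged level and a fall as large as that of TGFBR2 both lie within its interval, so they could not be distinguished. The difference between the comparisons was -0.04 (interval -1.96 to 1.89), and its sign changed with the GC trend removed (0.26).

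The promoters of SMAD6, ID1 and ID3 are shown because these are target genes of BMP signalling whose values lay below control in both comparisons, as did SMAD7. Each runs from 250 bases before to 50 bases after the start site in RefSeq (GRCh38.p14), read 5′ to 3′ on the gene's strand, and capitals mark GTCT or its complement AGAC, the box that SMAD proteins bind. They lie at chr15:66701986-66702285 (plus strand), chr20:31605039-31605338 (plus strand) and chr1:23559452-23559751 (minus strand).
SMAD6: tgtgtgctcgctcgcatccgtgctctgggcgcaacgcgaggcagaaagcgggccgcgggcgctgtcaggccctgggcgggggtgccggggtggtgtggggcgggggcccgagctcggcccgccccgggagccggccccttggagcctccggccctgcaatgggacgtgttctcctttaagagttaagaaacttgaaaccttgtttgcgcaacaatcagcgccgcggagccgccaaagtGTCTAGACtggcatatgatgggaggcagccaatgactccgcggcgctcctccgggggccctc
ID1: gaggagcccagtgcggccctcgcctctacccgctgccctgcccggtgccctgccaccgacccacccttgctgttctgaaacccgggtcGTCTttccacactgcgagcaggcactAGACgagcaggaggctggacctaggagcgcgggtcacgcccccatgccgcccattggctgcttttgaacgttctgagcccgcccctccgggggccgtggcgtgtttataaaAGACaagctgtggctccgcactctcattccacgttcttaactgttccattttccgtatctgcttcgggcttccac
ID3: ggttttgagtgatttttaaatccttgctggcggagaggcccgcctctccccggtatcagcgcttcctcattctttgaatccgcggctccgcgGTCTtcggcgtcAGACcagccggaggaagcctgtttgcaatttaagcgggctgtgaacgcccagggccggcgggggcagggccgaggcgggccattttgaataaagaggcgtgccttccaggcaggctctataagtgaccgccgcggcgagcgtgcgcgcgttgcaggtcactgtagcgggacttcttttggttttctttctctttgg
In SMAD6 the boxes join as the palindrome GTCTAGAC, whose first base is at -12 from the start site, where negative positions lie before it. GTCTAGAC occurs in 71 of 35116 RefSeq promoter windows of this length (0.202%), and among the 9 members with a window only in SMAD6. A GTCT or AGAC, counted also within a palindrome, is common, in 84.0% of all windows. All 9 members had it, some of them with several windows. In SMAD6 the only boxes are those of the palindrome. The first bases of the ID1 boxes are at -162, -136 and -25 and of the ID3 boxes at -158 and -146. The GC-rich element GGCGCC was found in 19.2% of all windows and in BMPR2, SMAD1 and SMAD5. The cAMP response element TGACGTCA was in 1.85% of all windows and in 0 of the 9 members. The heat shock element pair GAANNTTC was in 6.77% and in ID1, SMAD1 and SMAD5. Both strands were searched for all 5 motifs; matches are descriptions of these letters, not of binding.

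The ID genes, which encode inhibitors of E proteins, were not called in either comparison, but ID3 and ID1 were the least precisely measured of the abundant members. ID3, on chromosome 1 from 23557918 to 23559794 (minus strand), had implied means of 1317 normalised counts in the CRISPR control and 311 after the deletion. This was 23.6% of control, with an interval from 6.50% to 85.9%. By the authors' deposited table ID3 had a log2 fold change of -2.08 (SE 0.95, p = 0.0285, adjusted p-value 0.115, DESeq2). The SE was 3.74 times the median of the 200 genes nearest in mean count, above 99.0% of them. ID1, on chromosome 20 from 31605283 to 31606515 (plus strand), had implied means of 638 and 340. It was at 53.3% of control (20.4% to 139%; log2 fold change -0.91, SE 0.71, adjusted p-value 0.401, authors' deposited table), with an SE 2.64 times that of genes of like count. An SE over 2 times that of like genes was found for 108 of 11835 genes in the deletion table (0.913%), of which 103 had a negative fold change, and ID1 and ID3 were the only members among them.

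Under siRNA the SEs of ID1 and ID3 were again high, at 1.66 and 1.95 times those of genes of like count. ID3 was at 75.8% of control (56.8% to 101%) with implied means of 718 and 544 normalised counts, and ID1 at 86.8% (67.6% to 111%) with 511 and 443. Their adjusted p-values were 0.452 and 0.795 in the authors' deposited table. ID2, on chromosome 2 from 8678845 to 8684453 (plus strand), had a mean of 31.4 normalised counts under siRNA and was at 67.0% of control (46.5% to 96.6%). It was not called in the authors' deposited table (p = 0.0318, adjusted p-value 0.325, DESeq2). After the deletion ID2 was at 125% (49.1% to 319%), on the other side of control from ID1 and ID3, within an interval that covers both directions. The deletion minus siRNA differences of the ID genes, -0.70 for ID1, 0.90 for ID2 and -1.68 for ID3, did not pass the test (adjusted p-values 0.558, 0.438 and 0.243).

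**Figure D2:**
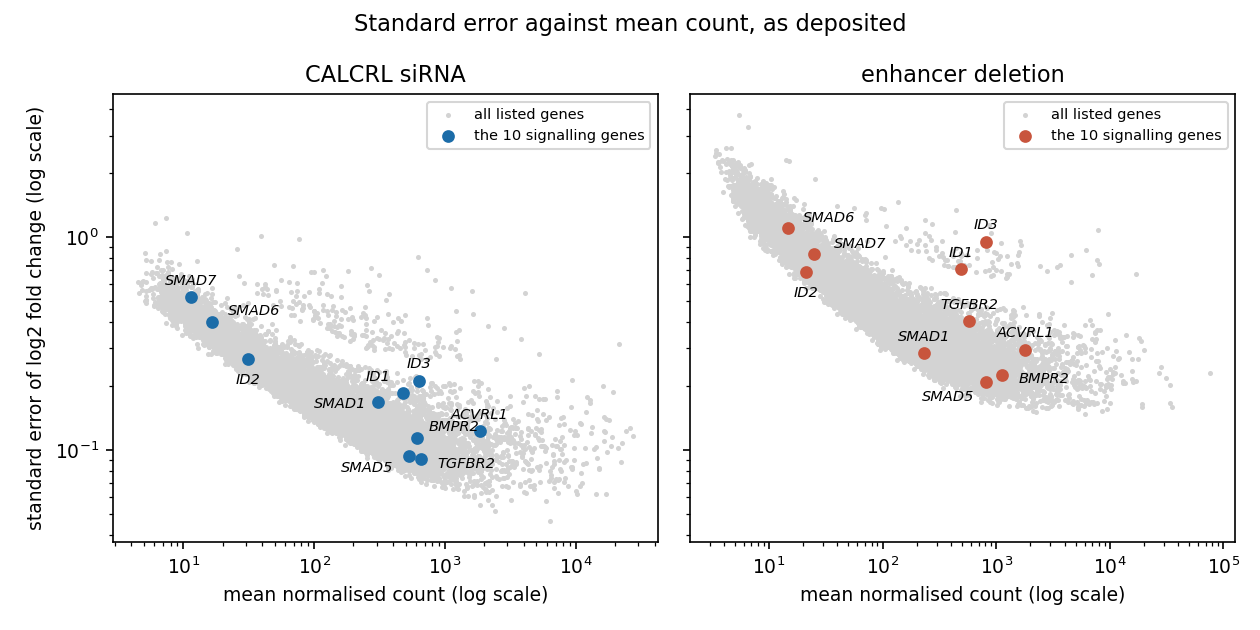
The deposited standard error of the log2 fold change is plotted against the mean normalised count of each gene, both on log scales, for CALCRL siRNA (left) and enhancer deletion (right); grey points are all listed genes and coloured points the 10 signalling genes. In the deletion panel ID3 (0.95) and ID1 (0.71) lie above the main band at means of 814 and 489 normalised counts, while BMPR2, SMAD5 and SMAD1 lie within it.

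ID3 was also the member with the word GTAACAA in its 3′ UTR, which is shown because that word was found, in earlier work on these tables, to be frequent among genes lower under this siRNA. Of the 266 genes called lower whose 3′ UTR is annotated, 56.4% held it, as did 9.57% of genes not called and 3.48% of the 115 called higher. The word was picked from these same data, so these shares describe them and give it no separate support. The sites of ID3 (chr1:23557987-23558011, minus strand) and of the 3 called pathway genes with the word, CTGF (chr6:131948687-131948711, minus strand), XIAP (chrX:123913670-123913694, plus strand) and SMAD3 (chr15:67191869-67191893, plus strand), are printed with the word in capitals, from GENCODE 29 transcripts on GRCh38.
ID3: tgactttctGTAACAAtgcgatgta
CTGF: aatttgcctGTAACAAgccagattt
XIAP: tggtttgatGTAACAAgggttttaa
SMAD3: ttgtattgtGTAACAAgtactgctc
The other 9 members had 0 such words in the longest annotated 3′ UTR. Under siRNA CTGF and XIAP fell, SMAD3 rose, and ID3 was at -0.40 without passing the test. SMAD3 was 1 of the 4 genes called higher that held the word. Of the other pathway genes listed by role below, 2 of the 8 called lower held it (25%). So did 1 of the 2 called higher and 8 of the 54 not called (14.8%), whose sites are not printed. Whether the word has a part in these values was not tested.

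Around these 10 genes, 85 other genes of the pathway were listed by role, of which 64 were tested in each comparison. The lists were chosen with earlier results of these data known, so the shares called are descriptions, and an excess was not tested. Under siRNA 10 of the 64 were called (15.6%, beside 3.46% of all genes), 2 higher and 8 lower, and the median log2 fold change was -0.05. After the deletion 11 of the 64 were called (17.2%, beside 15.8% of all genes), 1 higher and 10 lower, with a median of -0.20. CTGF and FN1 were called in both comparisons, lower each time. With the Student t reference 0 of the 64 were called in either comparison, and with division by the robust SD 5 under siRNA and 0 after the deletion. Over all genes the Student t reference left 5 of 11261 calls under siRNA and 0 of 11830 after the deletion. Division by the robust SD left 262 and 0.

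Among ligands, 0 of 6 were called under siRNA, beside 3.46% of all genes (0 at an unadjusted p-value under 0.05, DESeq2). After the deletion BMP6, a BMP ligand made by endothelial cells, fell to 33.4% of control (21.3% to 52.3%; log2 fold change -1.58, SE 0.33, adjusted p-value 0.000164 by the authors' deposited table). Of 8 receptors and co-receptors, ACVR1 (ALK2), another type I receptor for BMPs, fell after the deletion to 22.5% of control (12.7% to 39.8%; log2 fold change -2.15, SE 0.42, adjusted p-value 4.26e-05 by the authors' deposited table). TGFBR1, the type I partner of TGFBR2, was at 33.5% (14.7% to 76.6%), with an adjusted p-value of 0.0568 by the authors' deposited table that just missed the threshold. ENG, which encodes endoglin, was at 151% of control (93.6% to 242%, adjusted p-value 0.248 by the authors' deposited table). Beside the fall of TGFBR2 and ACVR1, the rise of ACVRL1 was thus the sole called increase among the receptors. Under siRNA 0 of these 8 receptor genes were called, beside 3.46% of all genes (1 at an unadjusted p-value under 0.05, DESeq2). There ENG was at 94.8% (81.1% to 111%) and TGFBR1 at 114% (82.9% to 156%). The deletion minus siRNA difference passed for BMP6 (-1.73, SE 0.40, adjusted p-value 0.00119) and ACVR1 (-1.98, SE 0.62, adjusted p-value 0.0184), and not for TGFBR1 (-1.76, SE 0.65, adjusted p-value 0.05003) or ENG (0.67, SE 0.37, adjusted p-value 0.216).

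Among the other SMADs, SMAD3, a transducer of TGF-beta, rose under siRNA to 123% of control (109% to 138%; log2 fold change 0.30, SE 0.09, adjusted p-value 0.0206 by the authors' deposited table). After the deletion SMAD3 had a log2 fold change of 0.23 with an SE of 0.18, and the authors' deposited table did not call it (adjusted p-value 0.380). Its deletion minus siRNA difference did not pass (-0.06, SE 0.20, adjusted p-value 0.868). SMAD4, the partner shared by both branches, was not called in either comparison, at 97.6% under siRNA (80.7% to 118%) and 65.6% after the deletion (44.4% to 96.9%, adjusted p-value 0.130 by the authors' deposited table).

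Of the extracellular antagonists and latency proteins, 2 of 10 were called lower under siRNA, beside 2.42% of all genes. An excess in so short a list was not tested. FST, whose product follistatin binds activins and some BMPs, was at 62.6% of control (53.1% to 73.9%; log2 fold change -0.68, SE 0.12, adjusted p-value 5.03e-06 by the authors' deposited table). LRRC32 (GARP), which holds latent TGF-beta at the cell surface, was at 76.0% (63.9% to 90.2%), with an adjusted p-value of 0.0498 by the authors' deposited table that lay just under the threshold. After the deletion 1 of 10 was called lower, near the 8.44% of all genes. This was TWSG1, a secreted BMP-binding protein, at 26.1% of control (14.6% to 46.5%; log2 fold change -1.94, SE 0.43, adjusted p-value 0.000389 by the authors' deposited table). FST and LRRC32 lay above control after the deletion, at 127% (85.3% to 190%) and 130% (85.7% to 198%), and were not called there. TWSG1 was at 96.4% under siRNA (75.4% to 123%). The deletion minus siRNA difference passed the test for FST (1.02, SE 0.32, adjusted p-value 0.0182) and TWSG1 (-1.89, SE 0.46, adjusted p-value 0.0023), and not for LRRC32 (0.78, SE 0.33, adjusted p-value 0.0955).

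Of the intracellular inhibitors, SMURF2, a ubiquitin ligase for SMADs and their receptors, rose under siRNA to 142% of control (128% to 158%; log2 fold change 0.51, SE 0.08, adjusted p-value 1.84e-08 by the authors' deposited table). It was the lone call of 14, beside 3.46% of all genes. After the deletion 3 of 13 were called, beside 15.8% of all genes, and an excess was not tested. FKBP1A (FKBP12), which binds type I receptors and restrains their kinase, rose to 165% (125% to 216%, adjusted p-value 0.00691 by the authors' deposited table). The SMAD co-repressors SKIL (52.9%, 36.2% to 77.3%, adjusted p-value 0.0137) and TGIF1 (27.2%, 10.5% to 70.3%, adjusted p-value 0.0471) fell in the authors' deposited table, and neither kept the threshold with the GC trend removed, where SKIL went from -0.92 to -0.61 (adjusted p-value 0.135) and TGIF1 from -1.88 to -1.64 (0.101) on the log2 scale. SKI, a related co-repressor picked out after its values were seen, went the other way, from -0.49 (adjusted p-value 0.288) to -1.02 with the GC trend removed (0.0152), past the threshold. The counts of TGIF1 were low, with a mean of 34.2 normalised counts and an implied 14.6 after the deletion. For SMURF2 the deletion minus siRNA difference did not pass (-0.30, SE 0.26, adjusted p-value 0.476). Nor did it for FKBP1A (0.59, SE 0.22, adjusted p-value 0.0503), SKIL (-0.73, SE 0.30, adjusted p-value 0.0822) or TGIF1 (-1.83, SE 0.74, adjusted p-value 0.0735).

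The 3 E proteins that ID proteins bind were not called in either comparison. Under siRNA TCF3 was at 105%, TCF4 at 98.4% and TCF12 at 96.9% of control, with upper interval ends of at most 117% and lower ends of at least 81.5%. After the deletion they were at 91.3%, 82.5% and 65.0%, with the lowest adjusted p-value, 0.144 by the authors' deposited table, for TCF12. Of the TAK1 branch, through which TGF-beta receptors signal apart from SMADs, MAP3K7 (TAK1 itself) fell under siRNA to 67.8% of control (55.3% to 83.0%, adjusted p-value 0.00832 by the authors' deposited table). XIAP, an adaptor of that branch, fell to 74.8% (64.3% to 87.0%, adjusted p-value 0.00782 by the authors' deposited table). After the deletion 0 of the 5 genes of the branch were called, with 1 at an unadjusted p-value under 0.05 (DESeq2).

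Of the target genes other than the members, 4 of 12 fell under siRNA and 5 of 13 fell after the deletion, with 0 called higher in either. Over all genes 2.42% were called lower under siRNA and 8.44% after the deletion. This list too was chosen with earlier results known, and an excess was not tested. HEY2, an endothelial transcription factor that BMP and Notch signals induce, was at 59.8% of control under siRNA (49.1% to 72.8%; log2 fold change -0.74, SE 0.14, adjusted p-value 4.12e-05 by the authors' deposited table). CTGF, a matricellular TGF-beta target, fell under siRNA to 69.2% (55.6% to 86.2%, adjusted p-value 0.0345 by the authors' deposited table). EDN1, which encodes endothelin 1, was at 77.3% (67.1% to 89.0%) and FN1, which encodes fibronectin, at 77.8% (66.9% to 90.5%), with adjusted p-values of 0.0151 and 0.0362 in the authors' deposited table. With the GC trend removed FN1 missed the threshold (adjusted p-value 0.0602) while its log2 fold change moved only from -0.36 to -0.34.

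After the deletion CTGF fell to 23.5% of control (13.3% to 41.3%, adjusted p-value 6.41e-05 by the authors' deposited table). JUNB fell to 11.5% (3.94% to 33.4%) and SNAI2 to 17.3% (4.97% to 60.6%), with adjusted p-values of 0.00235 and 0.0419 in the authors' deposited table. Their counts were low: means of 34.0 and 18.4 normalised counts, with implied means of 6.99 and 5.43 after the deletion. FN1 fell to 56.8% (38.2% to 84.5%, adjusted p-value 0.0382 by the authors' deposited table), and with the GC trend removed FN1 went from -0.81 to -0.56 (adjusted p-value 0.198) and SNAI2 from -2.53 to -2.15 (0.101) on the log2 scale, both short of the threshold. The deletion minus siRNA difference passed the test for CTGF (-1.56, SE 0.45, adjusted p-value 0.00968), JUNB (-3.10, SE 0.81, adjusted p-value 0.00409) and HEY2 (1.20, SE 0.29, adjusted p-value 0.00221). It did not pass for FN1 (-0.45, SE 0.31, adjusted p-value 0.341) or EDN1 (0.22, SE 0.32, adjusted p-value 0.692).

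**Figure D3:**
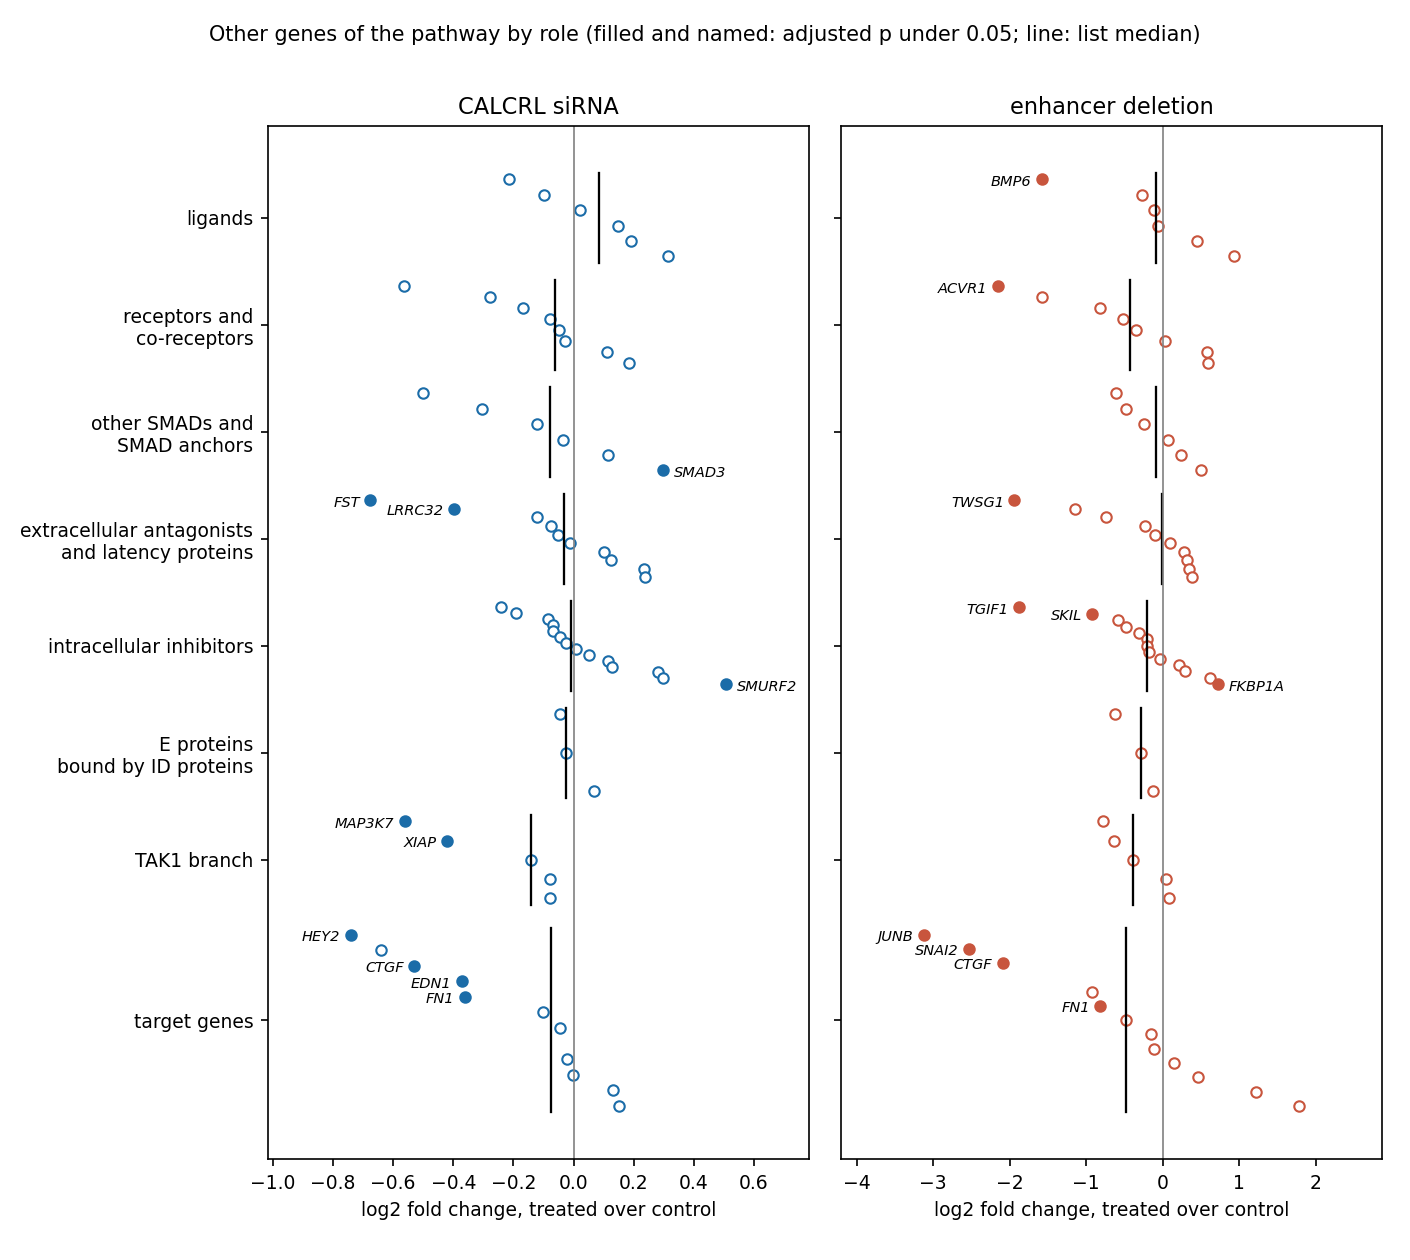
Log2 fold changes of the other pathway genes tested in each comparison, all but 1 of the 64, are plotted by role, with CALCRL siRNA on the left and enhancer deletion on the right on separate horizontal scales; filled, named points have an adjusted p-value under 0.05 and vertical lines mark the medians of the whole lists. The called target genes plotted lie to the left of 0, 4 in each panel, and FKBP1A is the only named point to the right of 0 in the deletion panel.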

How the data were processed

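RNA was read near its polyadenylated end (QuantSeq FWD, 86 cycles), per the labels' protocols. The authors used featureCounts for counting and DESeq2 for the comparisons, per the file headers and names. The deposited tables hold a mean normalised count, a log2 fold change, its standard error, a Wald score, and raw and adjusted p-values, written with decimal commas. The build hg19 and edgeR 3.24.3 are named, with no role, in the submitters' processing notes; the aligner and filters are not given in the sources used here. The labels do not say that replicates were separate cultures, so p-values measure the spread between these libraries, which may be technical. Depth per library is unknown. The mean normalised counts summed to 4547165 (siRNA) and 5153709 (deletion).

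From the deposited values, 95% intervals (normal), implied group means (equal group sizes), differences between the comparisons and Benjamini-Hochberg adjustments were computed with scipy 1.17.1. The difference test with its adjustment and the GC removal were tried on simulated data. Those data had normal errors of the deposited SE, so they could not test the normal reference or the SE. The alternatives were a Student t reference (6 and 4 degrees of freedom), division by the robust SD, median centring, a mean count of at least 50, and removal of a lowess trend (span 0.3, statsmodels 0.14.6) on GC content of the last 500 bases of GENCODE 29 transcripts. Members and lists were chosen with earlier results of these data known. The text names all 10 members, CALCRL, HPRT1, each called gene of the 8 pathway lists, and ENG, TGFBR1, SMAD4 and the E proteins whatever their values. The markers PECAM1, CDH5, KDR and EGFL7, and SKI, fall outside that rule and were named after their values were seen. Of the target genes, 1 that is included in the list counts and medians is not reported here.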

Additional observations from a re-analysis of the deposited data

Results flagged for a closer look

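Of the members, 2 showed a different effect in the enhancer deletion than under CALCRL siRNA by a direct test of the difference. ACVRL1 had a deletion minus siRNA log2 difference of 1.14, higher after the deletion (1.04) and close to control under siRNA (-0.10). TGFBR2 had a difference of -1.31, with -1.52 after the deletion and -0.21 under siRNA. Over 5 alternatives the adjusted p-value of the difference ranged from 0.00634 to 0.992 for ACVRL1 and from 0.0160 to 0.992 for TGFBR2.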

How the results depend on the processing

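No paired analysis was possible because values of individual libraries are not in the tables used, and for the same reason no replicate could be left out. Of the 5 alternatives run, 2 ended every call among the members: under the Student t reference and under division by the robust SD, members called after the deletion went from 3 to 0, members that differ between the comparisons from 2 to 0, and called pathway genes after the deletion from 11 to 0. Called pathway genes under siRNA went from 10 to 0 under the Student t reference and to 5 under division by the robust SD. Over all genes, the Student t reference left 5 calls under siRNA (774 at an unadjusted p-value under 0.05) and 0 after the deletion (1646), and division by the robust SD left 262 and 0 (535 unadjusted). Of all 10891 genes tested for a difference between the comparisons, 0 passed under either. With the GC trend removed, 2 members were called after the deletion, TGFBR2 and SMAD6. Then 1 member differed between the comparisons, ACVRL1, beside 1209 of all 10746 genes tested. Over all genes the GC removal left 362 calls under siRNA and 1440 after the deletion, where the share of higher calls moved from 875 of 1874 to 617 of 1440. It also changed the sign of SMAD5 (0.15) and BMPR2 (0.23) after the deletion, and of the differences of SMAD5 (0.067) and SMAD7 (0.26), none of them called; the cause was not tested. With a mean count of at least 50, ID2, SMAD6 and SMAD7 were left out, and the calls of ACVRL1 and TGFBR2 kept their side of the threshold. Median centring changed no call among the members. Under siRNA 0 members were called in each alternative.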
